A study of Rattus norvegicus with 4 samples.

Results

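The genes described here are the transcription factor gene Nfe2l2, which encodes NRF2, and 7 genes of antioxidant and aldehyde-removing enzymes, namely Aldh3a1, Hmox1, Nqo1, Gclc, Gclm, Gsta4 and Gstp1. Every probe set annotated to 1 of these 8 symbols was taken. The 8 are among 14218 genes with a probe set of their own on the array. They have 9 of its 31099 probe sets, 2 for Gclc and 1 for each other gene, and 0 of the 9 were shared with another gene symbol. ROE2 is an immortalized oral epithelial line made from the tongue of a rat fetus 18 days old. The donor was a transgenic Wistar animal carrying a temperature-sensitive SV40 large T antigen [pSVtsA58ori(-)-2], a viral protein that drives division at the permissive temperature and loses function in warmer culture, so all samples share this transgene and come from 1 line. Cells were plated on collagen at 33 °C in medium with 2% serum, insulin, transferrin, sodium selenite and 10 ng/ml EGF, moved to 37 °C after 24 h and collected after 0, 3, 6 or 9 days. Day 0 is the control in the labels.

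NRF2 is held in the cytoplasm and marked for destruction by KEAP1, an adaptor of the CUL3 ubiquitin ligase. Electrophiles and oxidants modify KEAP1, and NRF2 then accumulates, pairs with a small MAF protein and binds antioxidant response elements near genes of glutathione synthesis, quinone reduction and haem breakdown. Because this control acts on the protein, the Nfe2l2 transcript is not a direct measure of NRF2 activity. Surface epithelia use these enzymes, with aldehyde dehydrogenases and glutathione S-transferases, to remove reactive aldehydes formed from oxidised lipids.

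Each day's RNA went onto 1 Affymetrix array that reads the 3' part of transcripts, and values are the authors' log2 probe set values. With 1 array per day there were no replicates, no test was run, and day and array cannot be told apart. Cells of the later days had also spent longer in the warmer culture, and longer since plating, than those of day 0. No array came from cells kept at the plating temperature for these days. Each difference from day 0 thus holds the move to warmer culture as well as time, and these cannot be told apart. The part of large T antigen function in the differences was not tested. "2-fold higher" or "lower" below means a log2 difference of at least 1 between 2 arrays, and shares of all probe sets refer to the 14174 that reached 6 on any array. All 9 member probe sets passed that filter and lay above the brightest of 27 bacterial control probe sets (4.19 to 4.56) on every array. Actin control probe sets at the 3' end read 2.25, 2.44, 1.22 and 2.35 above those at the 5' end on days 0, 3, 6 and 9. For Gapdh the difference was 0.10, 0.04, -0.02 and 0.18, and for hexokinase 1.41, 1.48, 1.45 and 1.75. The part of the lower actin difference in the day 6 values was not tested. As a gauge of probe noise, the 2 probe sets of 1624 genes parted by a median of 0.18, 0.40 and 0.36 in the differences of days 3, 6 and 9 from day 0. In these bulk samples, fewer cells expressing a gene and less RNA per cell cannot be told apart. Of 16 measured oral epithelial markers, 14 to 15 had a value of 6 or more on each array, with Krt14 at 14.04 to 14.15 and Krt4 at 4.16 to 4.93. On day 9, 4 of the 15 that reached 6 on any array were 2-fold or more higher than on day 0 and 0 lower: Krt13 by 4.24, Krt78 by 3.53, Krt15 by 2.68 and Jup by 1.13. The 10 fibroblast and 7 measured endothelial markers were all below 6 on every array, as were all 8 measured muscle and nerve markers and the leukocyte gene Ptprc (2.79 to 2.93). Of 9 measured immune markers Cd68 and Cd14 reached 6, and Cd14, a lipopolysaccharide receptor gene, went from 10.66 on day 0 to 8.80 on day 9. Krt20 and Sox2 did so among 7 markers of Merkel cells and melanocytes, with Krt20 going from 6.64 to 8.92. The part of these genes' cells in the results was not tested.

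Hybridisation spike-ins, foreign control RNAs added at the hybridisation step, read a median of 0.14, 0.39 and 0.63 higher than on day 0 on days 3, 6 and 9 (18 probe sets). Added at that step, they do not gauge the amount of RNA labelled from each sample. Were they used for scaling, every difference from day 0 would be lower by these amounts. The part of this shift in the results was not tested. Values under that spike-in centring are given for the members, for the counts of each list and for other genes where a 2-fold call ended or a direction turned. Of the 15 epithelial markers it left 3 higher on day 9, with Jup at 0.50, and 1, Itga6, lower. Under that centring the median of all probe sets tested was -0.17, -0.49 and -0.74 on days 3, 6 and 9, so any list tends to gain lower genes. Shares of all genes or probe sets are given for the values as deposited only.

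As a set, the 9 member probe sets were above their day 0 value on days 3 and 6, and 8 of 9 were above it on day 9. Their median difference from day 0 was 0.71, 0.70 and 0.74 on the log2 scale, against -0.03, -0.10 and -0.11 for all probe sets tested. On day 3, 2 of 9 were 2-fold or more higher, Aldh3a1 and Hmox1, where 4.38% of all probe sets tested were. On day 6, 4 of 9 were higher, Aldh3a1, Gclm, Gsta4 and 1 Gclc probe set, against 7.46% of all. On day 9, 2 of 9 were higher, Aldh3a1 and Hmox1 again, against 6.81%, and 0 of 9 were lower on any of these days, where 2.42%, 7.74% and 6.6% of all were. Under spike-in centring, 1, 2 and 1 of the 9 were 2-fold or more higher on days 3, 6 and 9, and 9, 6 and 5 of 9 were above day 0. The 3 comparisons share the day 0 array, and the members were chosen with earlier results of these data known.

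**Figure D1:**
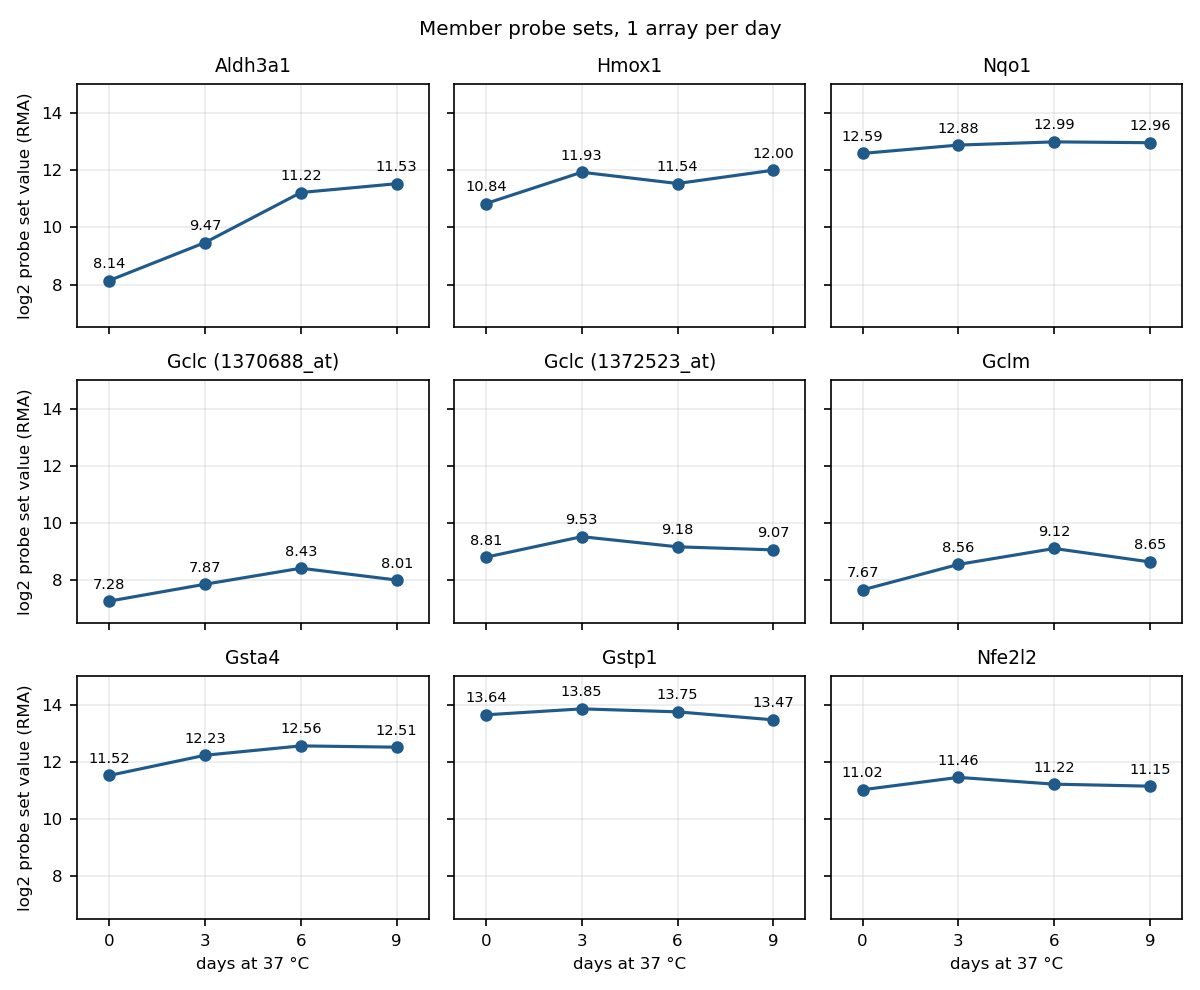
Log2 probe set value (vertical axis, same scale in each panel) against days at 37 °C (horizontal axis) for the 9 member probe sets, 1 point per array. Aldh3a1 goes from 8.14 to 11.53, while Gstp1 stays between 13.47 and 13.85.

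Aldh3a1 encodes a dehydrogenase that oxidises medium-chain and aromatic aldehydes and is best known as an abundant protein of the corneal epithelium. It showed the largest difference of the 8 genes. Its probe set (1368130_at) read 8.14 on day 0, 9.47 on day 3, 11.22 on day 6 and 11.53 on day 9. Each array was above the one before, by 1.33 from day 0 to day 3, by 1.75 from day 3 to day 6 and by 0.31 from day 6 to day 9, and the last of these steps was under 2-fold.

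On day 9 Aldh3a1 was 10.5-fold above day 0, a log2 difference of 3.39, and 17 of the 14174 probe sets tested, itself included, were at least that much higher. It was 8.44-fold above on day 6 and 2.51-fold on day 3. It was the 1 member probe set 2-fold or more higher on day 6 than on day 3, where 2.34% of all probe sets were. Under the centring on spike-ins it was still 1.19, 2.69 and 2.75 higher than on day 0 on days 3, 6 and 9.

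The genes with the course most like that of Aldh3a1 were sought among the 8794 other genes with a value of 6 or more, by the root mean square distance between the 3 differences from day 0. The closest was Cebpa, which encodes a transcription factor of postmitotic keratinocytes, at a distance of 0.33 on the log2 scale. Cebpa was 1.53, 2.71 and 2.99 above day 0 on days 3, 6 and 9. Next came Tmem45a2, at 0.38, and Igfbp2, which encodes a binding protein of insulin-like growth factors, at 0.39. These distances rest on 3 differences from 4 arrays, and 0 genes lay within 0.25 of Aldh3a1, whereas 47 lay within that distance of Hmox1 and 1682 of Gstp1.

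Aldh3a1 was set beside the rest of its family, 20 genes of which 13 reached a value of 6. On day 9, 3 of the 13 were 2-fold or more higher than on day 0 and 1 was lower, where 5.57% of all 8802 genes tested were higher and 6.25% lower. The family median was -0.11, close to the -0.14 of all genes. Under spike-in centring the family median was -0.74, the same as for all probe sets tested, with 2 genes higher and 5 lower. Aldh1a1, the retinal dehydrogenase gene, had values of 6.61, 7.58, 8.82 and 10.12 on days 0, 3, 6 and 9. Its difference of 3.51 on day 9 was of the size of that of Aldh3a1, but its course was not the same. From day 6 to day 9 Aldh1a1 gained 1.30 and Aldh3a1 0.31.

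Aldh5a1, which encodes the succinic semialdehyde dehydrogenase of GABA breakdown, went from 6.18 to 7.72. Its 2 other probe sets, both below 6 on every array, gave differences of 1.23 and 0.21 on day 9. Under spike-in centring the brightest gave 0.90, under 2-fold, and the 2 others 0.59 and -0.42. Aldh3b1, another member of the ALDH3 group, moved the other way, from 6.16 to 4.72. It reached 6 on day 0 alone, so it could only be counted as lower, and on day 9 it lay near the brightest bacterial control (4.56). Aldh3a2, the fatty aldehyde dehydrogenase gene of the same group, read 8.44 on day 0 and 8.34 on day 9, and Aldh2, the mitochondrial acetaldehyde-clearing gene, 10.83 and 10.76. Both differences were smaller than the usual gap between probe sets of 1 gene.

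**Figure D2:**
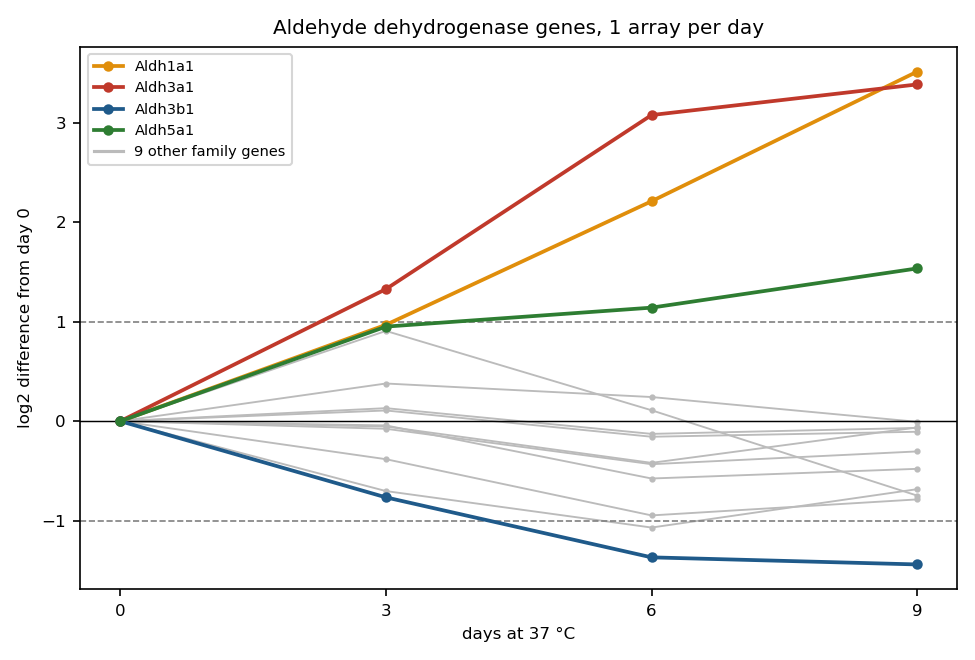
Log2 difference from day 0 (vertical axis) against days at 37 °C (horizontal axis) for the 13 aldehyde dehydrogenase genes that reached a value of 6, 1 array per day, with dashed lines at 2-fold. Aldh3a1 and Aldh1a1 end at 3.39 and 3.51, Aldh5a1 at 1.54 and Aldh3b1 at -1.44, and the other 9 genes stay within 2-fold of day 0 on day 9.

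Hmox1 encodes the inducible haem oxygenase, which splits haem into biliverdin, iron and carbon monoxide. Its probe set (1370080_at) read 10.84, 11.93, 11.54 and 12.00 on days 0, 3, 6 and 9. Day 0 was the lowest array and days 3 and 9 were the highest, with day 6 between them. Hmox1 was thus 2.14-fold above day 0 on day 3, 1.63-fold on day 6 and 2.25-fold on day 9. The dip from day 3 to day 6 was -0.39 and the gain from day 6 to day 9 was 0.47, both under 2-fold. Centred on the spike-ins, Hmox1 was 0.96, 0.31 and 0.53 above day 0, under 2-fold on each day.

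The list of haem and iron genes around Hmox1 held 8 of 12 with a value of 6 or more. On day 9 Hmox1 was the 1 gene past 2-fold upwards and 2 were past it downwards, where 5.57% of all genes were higher and 6.25% lower. Under spike-in centring 0 were higher and 3 lower. Tfrc, the transferrin receptor gene that brings iron into cells, went from 12.22 to 10.79, 10.01 and 10.81, a difference of -1.41 on day 9, and its other probe set gave -1.57. Slc11a2, the gene of the iron transporter DMT1, was at -1.31, but its other probe set gave -0.22. Hmox2, the constitutive haem oxygenase gene, differed by 0.32 and the biliverdin reductase gene Blvrb by 0.55, which turned to -0.31 and -0.08 under spike-in centring.

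Gclc and Gclm encode the catalytic and the modifier subunit of glutamate-cysteine ligase, the rate-limiting enzyme of glutathione synthesis. Gclm (1370030_at) read 7.67, 8.56, 9.12 and 8.65 on days 0, 3, 6 and 9. Day 6 was the highest, 2.73-fold above day 0, and days 3 and 9 were 1.85-fold and 1.97-fold above, just short of the 2-fold rule. With spike-in centring Gclm remained 2-fold or more higher on day 6, at 1.06, and was at 0.34 on day 9, while centring on the median probe set took day 9 past 2-fold, at 1.06.

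The 2 Gclc probe sets did not give the same course. The first (1370688_at) read 7.28, 7.87, 8.43 and 8.01, with its peak on day 6, 1.15 above day 0. The second (1372523_at) read 8.81, 9.53, 9.18 and 9.07, with its peak on day 3, 0.72 above day 0, and was only 0.36 above on day 6. Both were lowest on day 0. On day 9 they were 0.74 and 0.26 above it, and with spike-in centring 0.10 and -0.38. The second was at -0.03 on day 6 under that centring. The course of the first probe set followed the order of days seen for Gclm, and that of the second did not.

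Promoter windows were read from RefSeq (build GRCr8), 250 bases before to 50 after a transcript start, and matched for 6 of the 8 genes by symbol, not for Aldh3a1 and Hmox1. Each was searched on both strands for the core of the antioxidant response element, TGACNNNGC, and for the AP-1 motif TGANTCA, which can overlap it. The element core was found in 3 of the 6 windows, those of Gclm, Gstp1 and Nfe2l2, and in 12.1% of all 33469 windows. It was not in the windows of Nqo1, Gclc and Gsta4, and elements farther away were not searched. The Gclm window is shown because Gclm was the ligase gene with the larger difference. Its 250 bases before the start lie on the forward strand at chr2:213031885-213032134, outside the annotated transcript, and capitals mark the match, which reads TGACTAAGC on the opposite strand, with its first base 172 before the start:
Gclm: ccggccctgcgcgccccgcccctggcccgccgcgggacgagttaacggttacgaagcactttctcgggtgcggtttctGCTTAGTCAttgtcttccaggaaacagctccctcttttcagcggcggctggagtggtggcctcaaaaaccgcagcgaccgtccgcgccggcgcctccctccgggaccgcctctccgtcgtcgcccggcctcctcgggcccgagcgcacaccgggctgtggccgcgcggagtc

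The matches of the other windows are shown with their flanks, for comparison with Gclm, capitals again marking the core. The Gstp1 site lies on the reverse strand at chr1:210769748-210769776, inside the annotated span of the gene and 61 bases before the start used, and its core overlaps the 1 AP-1 motif found in the 6 windows. The Nfe2l2 site lies on the reverse strand at chr3:81028950-81028971, and its core begins 39 bases into the transcript. A match describes letters only and does not show binding.
Gstp1: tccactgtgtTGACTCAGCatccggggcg
Nfe2l2: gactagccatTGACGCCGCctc

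Around Gclc and Gclm, the list of glutathione synthesis and recycling genes held 13 of 15 with a value of 6 or more. Its median was 0.64 on day 3, 0.43 on day 6 and 0.28 on day 9, against -0.05, -0.18 and -0.14 for all genes, and -0.35 on day 9 with spike-in centring. On day 9 Abcc1, the exporter of glutathione conjugates, was 2-fold or more higher, from 9.28 to 10.38, and 0 were lower, beside 5.57% and 6.25% of all genes. Its difference of 1.10 became 0.46 with spike-in centring, which left 0 of the 13 higher and 2 lower. Other genes of the list, chosen after their values were seen, peaked on day 3. Slc7a11, the cystine importer gene, read 7.11, 9.96, 8.63 and 7.70, and so was 2.84 above day 0 on day 3 and 0.59 on day 9, the latter -0.05 with spike-in centring. Gss, the second enzyme of glutathione synthesis, was lower throughout, at -0.82, -1.33 and -0.93.

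Gsta4 and Gstp1 encode glutathione S-transferases. GSTA4 conjugates hydroxynonenal, a toxic aldehyde of lipid peroxidation, and GSTP1 is the main form of many epithelia. Gsta4 (1372297_at) read 11.52, 12.23, 12.56 and 12.51 on days 0, 3, 6 and 9. All 3 later arrays were above day 0, by 0.71, 1.03 and 0.99, so Gsta4 passed 2-fold on day 6 and was just under it on day 9. With spike-in centring it was at 0.57, 0.65 and 0.35 and passed on none of these days, and a further quantile normalization put day 6 just under 2-fold. Centred on the median probe set, day 9 passed too, at 1.07.

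Gstp1 (1388122_at) read 13.64, 13.85, 13.75 and 13.47. It was the 1 member probe set below its day 0 value on day 9, by -0.18, though centred on the housekeeping genes' differences it was at 0.0076. With spike-in centring it was at -0.28 on day 6 and -0.81 on day 9. It lay 0.47, 0.24, 0.47 and 0.76 under the brightest value of the array on days 0, 3, 6 and 9. Any ceiling on its signal was not tested. As deposited, its differences on days 6 and 9 were within the usual gap between probe sets of 1 gene. That of day 3, 0.21, was slightly above the gap of 0.18, and the spike-in centred -0.81 was beyond the day 9 gap of 0.36.

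In the wider transferase list of 25 genes, 13 had a value of 6 or more, and the list median was 0.21, -0.03 and -0.24 on days 3, 6 and 9. Gsta4 was the 1 gene 2-fold or more higher on day 6, and 0 of 13 were higher or lower on day 9, where 11.8% of all genes were. With spike-in centring the day 9 median was -0.87, against -0.74 for all probe sets tested, and 0 were higher and 6 lower. Of the 11 others, 3 were above day 0 on day 9, with a median of -0.47. Gsta1 and Gsta3, of the same alpha class as Gsta4, were below 6 on every array.

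Nqo1 encodes a quinone reductase that is the most used readout of NRF2 activity. Its probe set (1387599_a_at), whose ID marks it as matching more than 1 transcript of a gene, read 12.59, 12.88, 12.99 and 12.96. The differences from day 0 were 0.29, 0.40 and 0.37, none of them 2-fold, and with spike-in centring the day 9 value turned to -0.26. Nqo2, a related reductase gene, went from 6.33 to 5.11 on day 9, a difference of -1.22, and it was the 1 gene of 15 tested in the list of aldo-keto, carbonyl and quinone reductases to differ by 2-fold or more on that day, against 11.8% of all genes. Nqo2 reached 6 on day 0 alone, so it could only be counted as lower. With spike-in centring, which put the median of all probe sets at -0.74, 6 of the 15 were lower and 0 higher. Centred on the median level of the housekeeping list, which put that median at 0.63, 5 were higher and 0 lower. That list includes Tfrc, at -1.41 on day 9, and its level median on day 0 rested in part on Tfrc. Centred on the housekeeping genes' differences, 0 were higher and 1 lower. On day 3, Akr1b8, an aldo-keto reductase gene, was 1.05 higher, and Adh7, an alcohol dehydrogenase gene of stratified epithelia, was 1.04 higher. On day 6 Akr1b8 was at 0.20 and Adh7 at 1.32, still past 2-fold. Both were under 2-fold on day 9, at 0.24 and 0.79, and were chosen after their values were seen. With spike-in centring the day 3 values were 0.91 and 0.90, under 2-fold. The day 6 values were then -0.19 and 0.93, also under 2-fold, and Akr1b8 on day 9 was at -0.39.

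**Figure D3:**
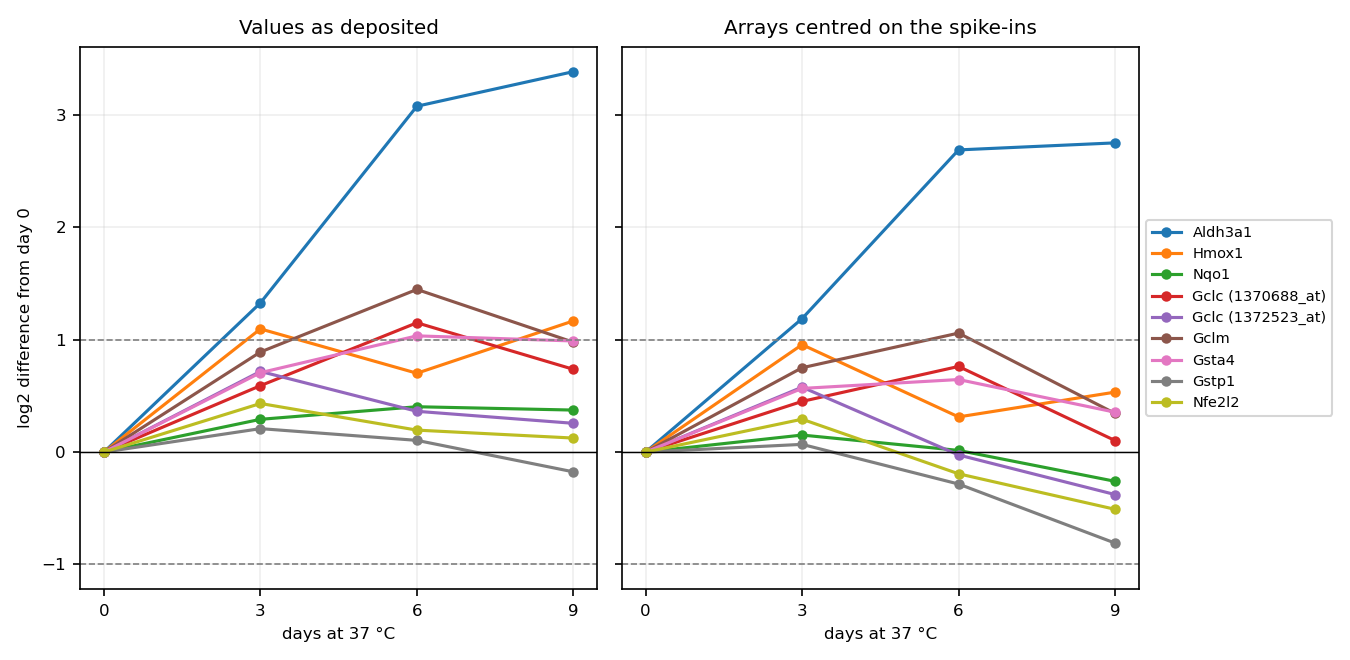
Log2 difference from day 0 (vertical axis) against days at 37 °C (horizontal axis) for the 9 member probe sets, as deposited (left) and under spike-in centring (right), with dashed lines at 2-fold. Aldh3a1 stays 2-fold or more above day 0 from day 3 on in both panels, at 3.39 and 2.75 on day 9, while Hmox1 goes from 1.17 on the left to 0.53 on the right.

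Nfe2l2 itself (1367826_at) read 11.02, 11.46, 11.22 and 11.15 on days 0, 3, 6 and 9. Day 3 was highest and day 0 lowest, and the differences from day 0 of 0.43, 0.20 and 0.12 were all under 2-fold. With spike-in centring they were 0.29, -0.19 and -0.51. Of 14 genes in the list of NRF2 and its regulators, 11 had a value of 6 or more, and 0 were 2-fold or more higher or lower than on day 0 on any of days 3, 6 and 9, where 6.45%, 13.8% and 11.8% of all genes were. Their median on day 9 was 0.18, and -0.46 with spike-in centring, under which 1 gene was 2-fold lower on day 6. Centred on the median level of the housekeeping list, 4, 4 and 5 of the 11 were 2-fold or more higher on days 3, 6 and 9. That centring also put the median of all probe sets tested at 0.71, 0.61 and 0.63. The day 0 level median of the list rested in part on Tfrc, which was lower on each of these days. Centred on the housekeeping genes' differences instead, 0 of the 11 were higher or lower on any of these days. Keap1 read 7.69 on day 0 and 7.66 on day 9, Cul3 differed by 0.30 and Sqstm1, whose protein binds KEAP1, by 0.31. The small MAF genes Maff, Mafg and Mafk were at 0.37, 0.29 and 0.04, but a second Mafg probe set gave 1.36 on day 6 and 0.88 on day 9. With spike-in centring that probe set gave 0.97 on day 6, under 2-fold, and the day 9 values of Cul3, Sqstm1, Maff, Mafg and Mafk turned to -0.33, -0.32, -0.26, -0.34 and -0.60. Bach1, which encodes a repressor at antioxidant response elements, was below 6 on every array.

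Genes downstream of or beside the members were given by 10 lists, which hold 142 genes other than the members, 96 of them with a value of 6 or more. On day 9, 4 of the 96 were 2-fold or more higher and 9 lower, beside 5.57% and 6.25% of all genes, and their median was -0.12, near the -0.14 of all genes. The 4 were Abcc1, Aldh1a1, Aldh5a1 and Sult2b1, a cholesterol sulfotransferase gene that went from 8.84 to 11.38. Of the 9 lower genes, Aldh3b1 and Nqo2 reached 6 on day 0 alone. The split between higher and lower depended on scaling. Under spike-in centring, where the median of all probe sets was -0.74, 2 were higher and 35 lower of 95. Centred on the housekeeping genes' differences, 11 were higher and 7 lower of 98.

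Of the 9 lower genes, 2 were among the 7 genes at 6 or more of peroxide and superoxide removal and 2 among the 9 of NADPH supply, where 6.25% of all genes were lower. With spike-in centring 2 of the 7 and 4 of the 9 were lower, and 0 of either list higher. Gpx1, the main cytosolic glutathione peroxidase gene, read 12.34, 11.89, 11.01 and 10.70, a difference of -1.64 on day 9, while Cat, the catalase gene, was 0.55 above day 0, and at -0.08 with spike-in centring. Gpx8, a peroxidase gene of the endoplasmic reticulum, was at -1.24. In the NADPH list, Nnt, the mitochondrial transhydrogenase gene, was at -1.28 and Pgd, of the pentose phosphate pathway, at -1.14, while Me1, the malic enzyme gene, was 0.85 above day 0. The other Me1 probe set gave 1.37, past 2-fold, and 0.74 with spike-in centring. In the thioredoxin list, Txnrd1, a thioredoxin reductase gene that NRF2 is known to activate, was at -1.10, and its other probe set gave -0.80. Srxn1, the sulfiredoxin gene and another known NRF2 target, was 0.89 above day 0 in its brightest probe set and 1.63 in another, and the last, below 6 on every array, gave 0.48. With spike-in centring these were 0.25, 0.996 and -0.15. Centred on the housekeeping genes' differences, Pgd and Txnrd1 were at -0.96 and -0.92, under 2-fold.

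**Figure D4:**
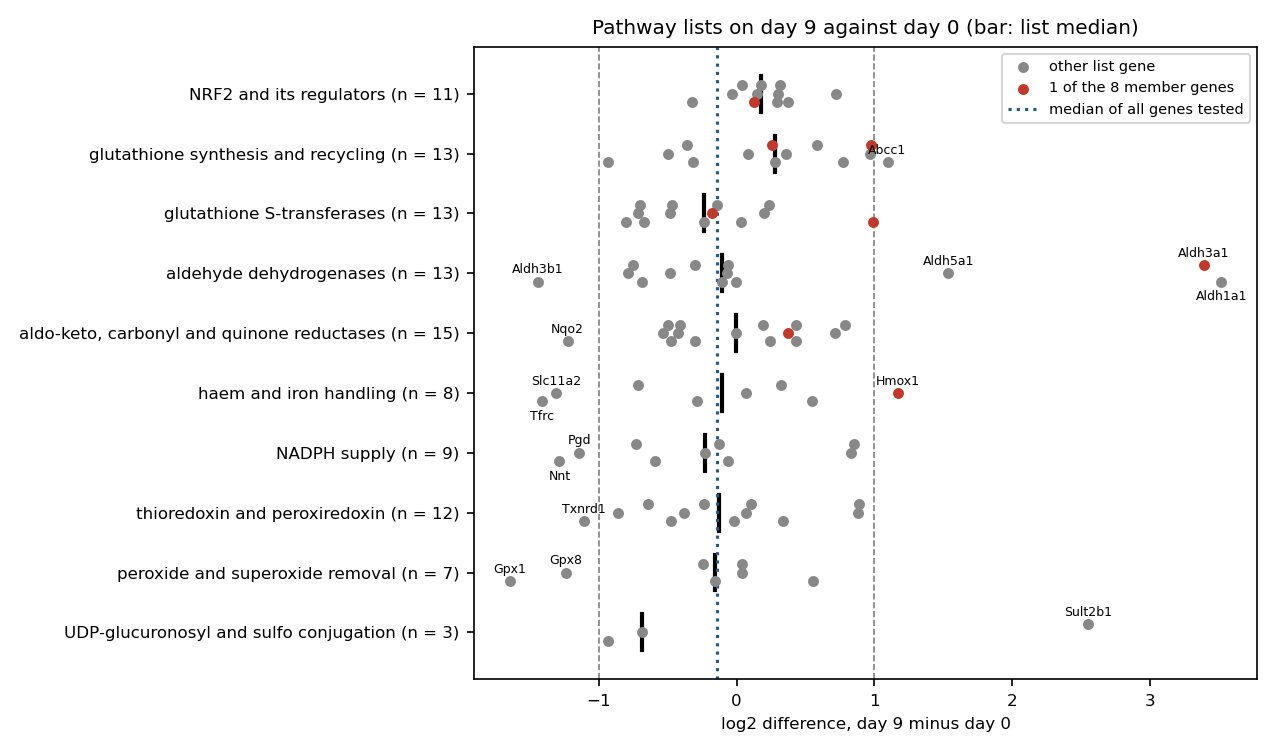
Log2 difference of day 9 from day 0 (horizontal axis) for every gene with a value of 6 or more in 10 pathway lists (vertical axis), with black bars at list medians, a dotted line at the median of all genes (-0.14) and dashed lines at 2-fold. Red points are the 8 member genes (1 probe set each), of which Aldh3a1 and Hmox1 pass 2-fold and Gclm and Gsta4 lie just under it.

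Between day 6 and day 9 the members differed little. None of the 9 probe sets passed 2-fold, where 1.19% of all probe sets did in either direction, and their differences ran from -0.47 for Gclm to 0.47 for Hmox1. Of the 9, 2 were above and 7 below their day 6 value, with a median of -0.07 against 0.02 for all probe sets. From day 3 to day 6, 5 were above and 4 below, and apart from Aldh3a1 the differences lay between -0.39 and 0.56. Only the order of days for Aldh3a1 was the same as that of time, from lowest on day 0 to highest on day 9. Day 6 was the highest array for 4 probe sets, those of Nqo1, Gclm, Gsta4 and the first of Gclc, day 3 for the second of Gclc, Gstp1 and Nfe2l2, and day 9 for Aldh3a1 and Hmox1. The day 6 array was also the one with the lowest 3' over 5' actin difference, whose part in these orders was not tested.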

How the data were processed

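The authors deposited log2 values of probe sets, made by RMA according to the labels (per the submitters' processing notes). RMA corrects background, equalises the array distributions and summarises probes. Its software and settings are not given in the sources, and a log2 scale was taken from the span of 1.55 to 14.2. RMA removes shifts shared by most genes. RNA integrity numbers were 9.5 to 10, and 500 ng of total RNA was labelled per array, per the labels.

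Probe sets were named from the platform annotation, 20832 with 1 symbol, 436 with several and 9831 with none. Entrez identifiers of 20764 were found in RefSeq, and 0 symbols changed. Lists used the probe set with the highest mean of each gene. The members and lists were chosen with earlier results of these data known. Every member is named, and from each list at most the 4 largest differences past 2-fold on day 9; genes named otherwise are marked or are list examples. The 2-fold rule was checked on simulated arrays. Alternatives were other scalings, floors, thresholds and probe set choices. Python 3.11.15, numpy 2.4.6, pandas 2.3.3 and matplotlib 3.10.9 were used.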

Additional observations from a re-analysis of the deposited data

How the results depend on the processing

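With 1 array per day no replicate could be left out, and no paired analysis was possible because each day has 1 array. Main counts of member probe sets 2-fold or more from day 0 were 2, 4 and 2 of 9 on days 3, 6 and 9. They became 1, 2 and 1 under spike-in centring, 8, 7 and 6 centred on the median level of 12 housekeeping genes, 0, 1 and 1 at 3-fold, and 6 and 5 on days 3 and 9 at 1.5-fold. Day 9 gave 4 when centred on the median probe set or, an alternative chosen after seeing the data, on the median difference of the housekeeping genes. The level median of that list fell by 0.75 on day 3, while its genes' median difference was -0.16. On day 0 the level median lay midway between Tfrc at 12.22 and Ywhaz at 12.38. On day 3 it again lay midway between these genes, at 10.79 and 12.31. Centring on that median difference also took Gclm past 2-fold on day 3, at 1.05. Further quantile normalization took Gsta4 just under 2-fold on day 6, at 0.997, and Gclm past it on day 9, at 1.03. The 13 other pathway genes past 2-fold on day 9 became 37 with the spike-ins, 29 with the housekeeping level, 38 at 1.5-fold and 3 at 3-fold. Counts between days 3 and 6 and between days 6 and 9 stayed at 1 and 0 under each alternative run. Of 165 values of single member probe sets under the alternatives, 36 moved by more than the usual gap between probe sets, 27 with the housekeeping level and 9 with the spike-ins, and none past 2-fold changed sign. Of the 3 promoter windows with an element core, 2 had one that overlaps no AP-1 motif. A member's signal over background was not a limit, since all lay well above the bacterial controls.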
